A study of Mus musculus with 10 samples.

Results

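The 45 genes described here are interferon-stimulated genes (ISGs), measured by RNA sequencing in 10 libraries of mammary epithelial cells from FVB mice. They were taken from a list of known ISGs, and that list was chosen with earlier results of these data known. Shares of the 45 genes set against all genes below therefore describe a chosen list. Genes were kept where 2 or more libraries had a value of 10 or higher. All 45 listed genes passed, out of 15694 genes that did so among 16290 in the deposited table. Each of the 45 reached 10 in every one of the 10 libraries. The groups were NIC-Prmt1 (3 libraries), NIC-Carm1 (3 libraries), NIC-Prmt6 (2 libraries) and NIC (2 libraries), and these numbers hold as n for the values below. Per the labels, all mice share the NIC genotype, which the labels do not spell out, and the other groups carry a protein arginine methyltransferase (Prmt1, Carm1 or Prmt6) in addition. The sources used here do not give the promoter behind each transgene, the age or sex of the mice or the number of animals per library. The cells came from the #3 and #4 mammary glands after enzymatic digestion and pulse centrifugation. The question put to these libraries here is how the ISGs differ between each methyltransferase group and NIC, and between the methyltransferase groups.

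Interferons are secreted proteins that warn neighbouring cells of infection or of misplaced nucleic acid. Type I interferons act through the receptor Ifnar1-Ifnar2 and the kinases Jak1 and Tyk2, which activate a transcription factor complex, with Stat2 and Irf9 among its subunits, that binds interferon-stimulated response elements in front of ISGs. Interferon gamma acts through Ifngr1-Ifngr2 and on genes with a palindromic site. Cells not under infection keep a low tonic level of interferon signalling and of ISG transcripts, and Irf7, Stat2 and Irf9 are themselves induced by it. The enzymes PRMT1, CARM1 and PRMT6 dimethylate arginine residues asymmetrically, on histones among other substrates.

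The promoters of the 45 genes were searched for the core of the interferon-stimulated response element, taken as GAAA, any 2 bases and GAAA again on either strand (TTTC, any 2 bases and TTTC when read on the other strand), in windows from 250 bases before to 50 bases after the gene start (RefSeq, build GRCm38.p6). A window was at hand for 36 of the 45 genes. The element was present in 20 of these 36 windows (55.6%), against 442 of the 11717 tested genes with a window (3.77%). The palindromic site TTCNNNGAA, which reads the same on both strands, was present in 8 of the 36 (22.2%), against 8.47% of the tested genes with a window, and 4 of the 36 held both motifs. A match is a run of letters and was not tested as a binding site. The stretches below show the motif in capitals in genes called lower in NIC-Prmt1 than in NIC (Isg15 to Bst2) and in genes not called lower there (Stat2, Cxcl10 and Irf1). Each is read 5′ to 3′ on the strand of its gene. Overlapping matches are capitalised as a single run, and the capitals in the Irf1 stretch mark TTCNNNGAA.
Isg15 (chr4:156200855-156200916, minus strand): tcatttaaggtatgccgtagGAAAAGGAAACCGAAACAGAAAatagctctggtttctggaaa
Oas1a (chr5:120907526-120907565, minus strand): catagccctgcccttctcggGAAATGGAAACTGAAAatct
Oas1g (chr5:120887614-120887651, minus strand): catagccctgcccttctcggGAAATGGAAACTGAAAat
Rsad2 (chr12:26456543-26456592, minus strand): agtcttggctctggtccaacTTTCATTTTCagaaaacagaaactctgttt
Ifit3 (chr19:34583353-34583436, plus strand): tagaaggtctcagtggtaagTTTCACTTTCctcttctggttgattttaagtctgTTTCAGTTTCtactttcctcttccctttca
Bst2 (chr8:71537567-71537622, minus strand): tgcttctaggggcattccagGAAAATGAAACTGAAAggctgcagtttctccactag
Stat2 (chr10:128270256-128270305, plus strand): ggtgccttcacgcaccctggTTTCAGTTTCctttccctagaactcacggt
Cxcl10 (chr5:92349073-92349122, minus strand): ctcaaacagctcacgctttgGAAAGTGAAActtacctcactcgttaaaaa
Irf1 (chr11:53769904-53769952, plus strand): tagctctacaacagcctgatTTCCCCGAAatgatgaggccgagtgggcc

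The deposited values are read counts divided by a size factor per library, called normalised read counts below. Whole reads recovered from them came to between 21589274 and 30260921 per library. A few libraries stood apart before any comparison was made. NIC-Carm1 replicates 2 and 3 were nearly identical, with a chi-square per degree of freedom of 2.69 over genes, as were NIC-Prmt6 replicates 1 and 2 with 2.44, whereas this value was 27.99 to 104.6 for all other pairs of libraries of a group. These pairs differed by more than sampling noise, so each library was kept, and the counts of changed genes are also given with each such pair averaged to 1 library. Nothing in the labels says that libraries of a group came from separate animals, so the p-values measure the spread between these libraries, which may be technical. Of the targeted transcripts, Prmt6 had 873 and 909 normalised reads in NIC-Prmt6 and 387 and 451 in NIC, Carm1 had 2479, 2324 and 2146 in NIC-Carm1 and 1556 and 1567 in NIC, and Prmt1 had 2963, 2702 and 3258 in NIC-Prmt1 and 2675 and 3077 in NIC. Prmt1 therefore overlapped between its own group and NIC, and the NIC-Prmt1 and NIC-Prmt6 libraries, at 2025 to 2432 reads of Carm1, were above NIC as well.

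Most ISGs were lowest in NIC-Prmt1 and next lowest in NIC-Prmt6, and the NIC-Carm1 libraries lay close to NIC. The group mean was lowest in NIC-Prmt1 for 34 of the 45 genes (75.6%), against 15.7% of all genes tested. It was highest in NIC for 21 genes (46.7%, against 28.3% of all genes), in NIC-Carm1 for 15, in NIC-Prmt6 for 8 and in NIC-Prmt1 for 1, Isg20. On the log2(value + 1) scale, the median deviation of the 45 genes from their own means over all libraries was -0.73, -0.36 and -0.44 in NIC-Prmt1 replicates 1, 2 and 3. It was 0.10, 0.55 and 0.61 in the NIC-Carm1 libraries, -0.16 and -0.22 in the NIC-Prmt6 libraries and 0.27 and 0.74 in the NIC libraries. Every NIC-Prmt1 and NIC-Prmt6 library thus lay below every NIC-Carm1 and NIC library, and the 3 NIC-Prmt1 libraries lay below both NIC-Prmt6 libraries. The median of all genes deviated by 0.004 or less in each library.

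Libraries of the same group also differed along these genes. NIC replicate 2 was above NIC replicate 1 for 40 of the 45 genes, by a median of 0.47 (log2), while 52.3% of all genes were higher in it. NIC-Carm1 replicate 1 was above replicate 3 for only 2 of the 45, with a median difference of -0.45, and NIC-Prmt1 replicate 2 was above replicate 1 for 36 of the 45. The heat map of all members shows this second pattern inside the groups as well as the difference between them.

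**Figure D1:**
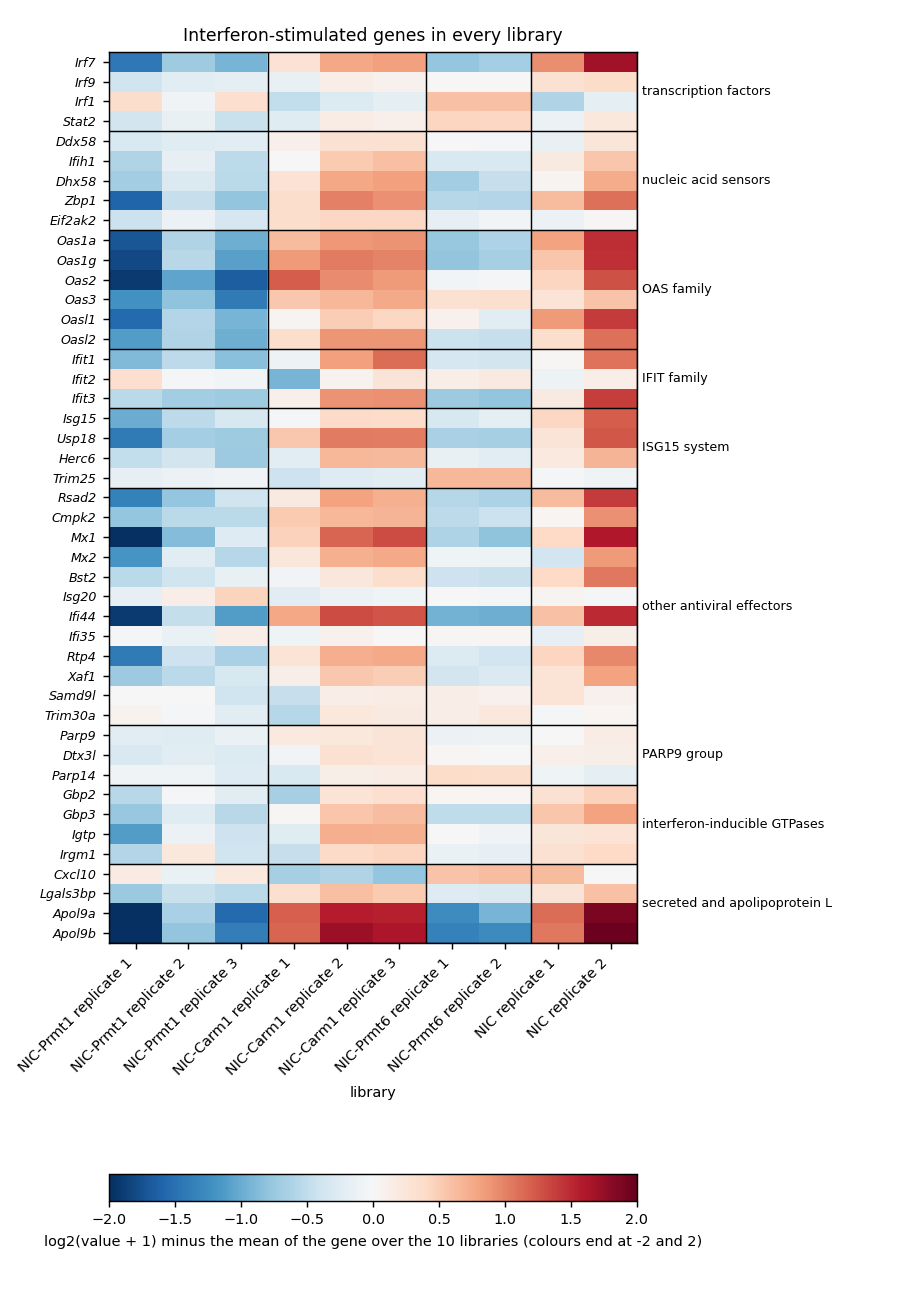
Each row is a member, ordered by role, and each column a library, with colour giving log2(value + 1) minus the mean of that gene over the 10 libraries. Blue fills most rows of the NIC-Prmt1 columns and many of the NIC-Prmt6 columns, and red is more common in the NIC-Carm1 and NIC columns, where 19, 4 and 4 of the 45 rows in NIC-Carm1 and 11 and 5 in NIC lie below their own mean.

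In NIC-Prmt1 against NIC, 29 of the 45 genes fell and 1, Irf1, rose (limma, adjusted p under 0.05 over all genes), while 14.4% of all genes tested fell and 15.2% rose (29.6% in all). The median log2 fold change of the 45 was -0.99, against -0.004 for all genes. All 6 OAS genes fell, as did 3 of 5 nucleic acid sensors, 2 of 3 IFIT genes, 3 of 4 genes of the ISG15 system and 7 of 12 other antiviral effectors, but only 1 of 4 interferon-inducible GTPases. For 36 genes every NIC-Prmt1 library lay below both NIC libraries, a pattern that 27.1% of all genes showed, and for 1 gene every library lay above them, as for 28.2% of all genes. Leaving out NIC-Prmt1 replicates 1 and 3, which hold the highest basal keratin and muscle transcripts, 18 genes fell and 0 rose by limma, when 8.41% of all genes were called, with 24 lower and 0 higher at an unadjusted p under 0.05. That setting was chosen after the data were seen, and the lone NIC-Prmt1 sample it leaves is assumed to vary like the other groups. Of the 29 lower calls, 21 were also made in each of the 21 other settings tried.

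In NIC-Prmt6 against NIC, 23 of the 45 genes fell and 3 rose (Irf1, Trim25 and Parp14), against 17.8% and 19.0% of all genes (36.8% in all). The median log2 fold change was -0.70, against -0.01 for all genes. Every NIC-Prmt6 library lay below both NIC libraries for 31 genes and above both for 5, against 38.6% and 38.1% of all genes. With the nearly identical libraries averaged, NIC-Prmt6 is a single sample whose spread is taken from the other groups, and 7 genes were called, when 10.7% of all genes were: Irf7, Oas1a, Bst2, Gbp3 and Apol9b lower, Irf1 and Trim25 higher. Without NIC replicate 2, the library with the higher ISG values, 10 of the 45 genes were called, a share close to the 21.0% of all genes called in that setting. Without NIC-Prmt6 replicate 1, 12 were called (17.0% of all genes), and without replicate 2, 15 (17.6%). Of the 23 lower calls, the 5 just named were made under each of the 21 other settings, and of the 3 higher calls those of Irf1 and Trim25.

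In NIC-Carm1 against NIC, 1 gene fell (Cxcl10) and 1 rose (Eif2ak2), against 9.36% and 6.65% of all genes (16.0% in all). The median log2 fold change was -0.05. The NIC-Carm1 libraries all lay below both NIC libraries for 8 genes, and all above them for 2, against 24.5% and 23.4% of all genes. On recovered reads DESeq2 called 7 genes in this comparison (20.5% of all genes) and edgeR 2 (15.6% of all genes). After averaging the nearly identical libraries limma called 0 (2.19% of all genes), with 6 lower and 1 higher at an unadjusted p under 0.05. These comparisons share the NIC libraries, so a high or low NIC library moves all of them together.

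**Figure D2:**
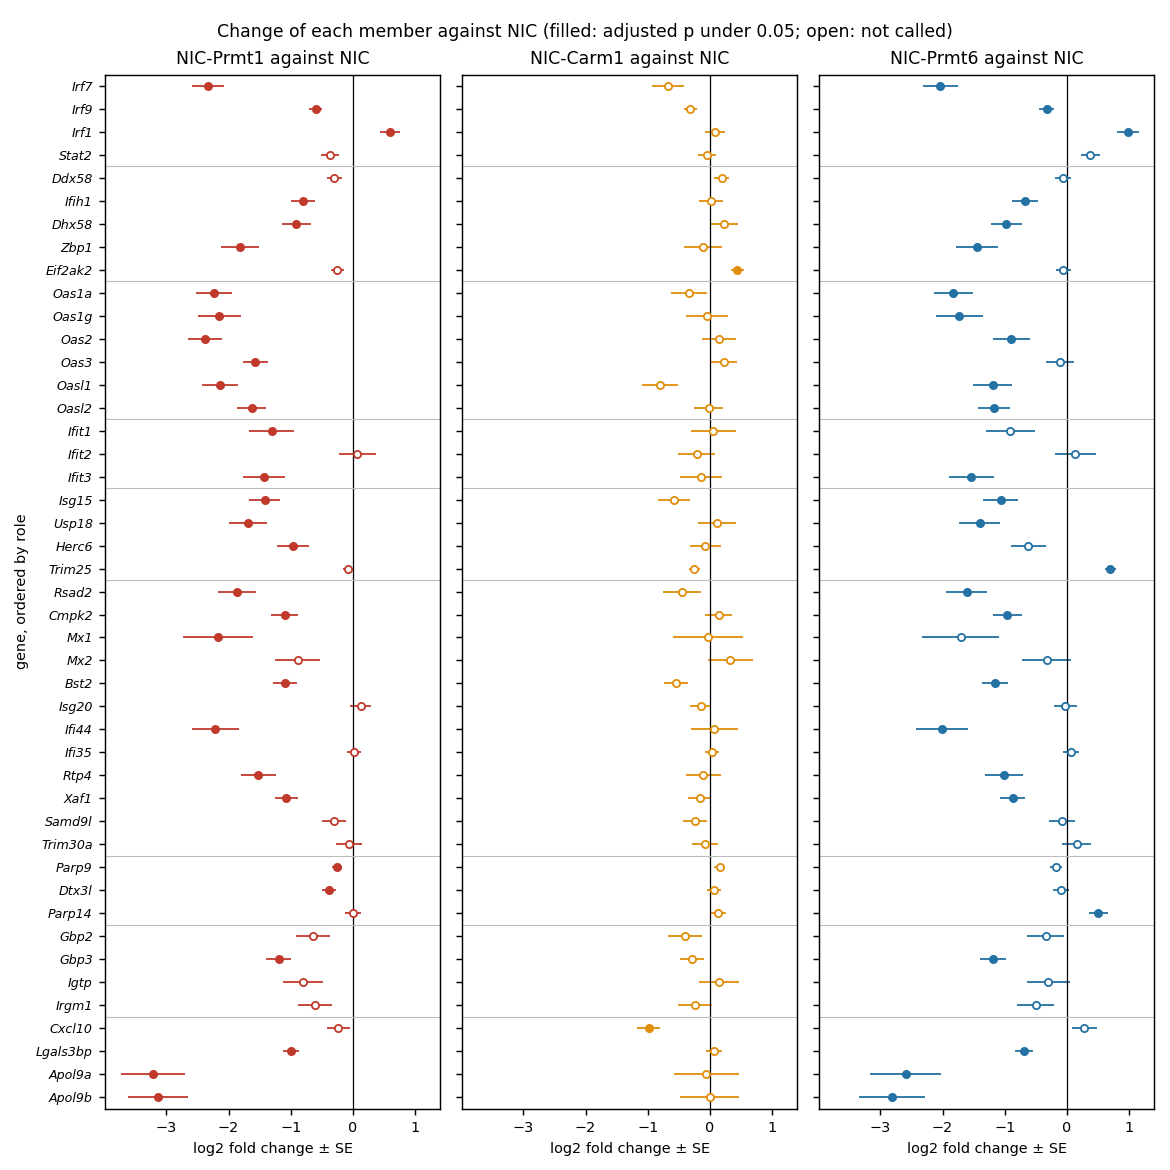
Points give the log2 fold change of each member against NIC on the log2(value + 1) scale, bars the standard error from limma, with filled points for adjusted p under 0.05 and open points otherwise. The NIC-Prmt1 and NIC-Prmt6 points lie mostly left of 0, with Irf1 to the right in both, and the NIC-Carm1 points lie on both sides of 0, with Cxcl10 and Eif2ak2 filled and others such as Oasl1 (-0.80) and Irf7 (-0.68) open.

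Among the transcription factors, Irf7, which drives the amplification of type I interferon, changed most. Irf7 had 740, 1227 and 1050 normalised reads in NIC-Prmt1, 2457, 3429 and 3533 in NIC-Carm1, 1174 and 1249 in NIC-Prmt6 and 3829 and 6428 in NIC. All NIC-Prmt1 and NIC-Prmt6 libraries were far below all NIC-Carm1 libraries, which in turn were below both NIC libraries. By its log2 fold change of -2.33 ± 0.26 (SE, limma adjusted p = 5.62e-04), Irf7 was 5.03-fold lower in NIC-Prmt1 than in NIC. In NIC-Prmt6 it was 4.10-fold lower than in NIC, with -2.03 ± 0.28 (adjusted p = 7.53e-04). In NIC-Carm1 the change of -0.68 ± 0.26 did not pass (adjusted p = 0.10). Irf9, the DNA-binding subunit of the complex that type I interferon activates, had 1811, 2059 and 2101 in NIC-Prmt1, 2149, 2605 and 2518 in NIC-Carm1, 2395 and 2391 in NIC-Prmt6 and 2943 and 3074 in NIC. Both NIC libraries were above all the others, and Irf9 fell in NIC-Prmt1 by 0.60 on the log2 scale (adjusted p = 0.00373) and in NIC-Prmt6 by 0.33 (adjusted p = 0.0469); the second call was lost with the nearly identical libraries averaged and without any of 8 single libraries.

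Irf1, a factor induced by interferon gamma and by inflammatory signals, went the other way. Irf1 had 11931, 8891 and 11823 normalised reads in NIC-Prmt1, 6638, 7756 and 8196 in NIC-Carm1, 14068 and 14040 in NIC-Prmt6 and 6192 and 8188 in NIC. The NIC-Prmt1 and NIC-Prmt6 libraries were all above the NIC libraries, and the NIC-Carm1 and NIC libraries overlapped. It rose 1.51-fold in NIC-Prmt1 (log2 fold change 0.60 ± 0.16, adjusted p = 0.0221) and 1.97-fold in NIC-Prmt6 (0.98 ± 0.18, adjusted p = 0.00285), and the NIC-Prmt1 call was lost with the nearly identical libraries averaged and without NIC replicate 1 or NIC-Prmt1 replicate 1 or 3. Stat2, the transactivating subunit of the complex, had 1681, 1946 and 1596 in NIC-Prmt1, 1833, 2389 and 2319 in NIC-Carm1, 2913 and 2884 in NIC-Prmt6 and 2002 and 2499 in NIC. Its change against NIC did not pass in any group. The difference between NIC-Prmt1 and NIC-Prmt6 did, at -0.74 ± 0.14 (adjusted p = 0.0148).

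Of the nucleic acid sensors, Zbp1, which recognises Z-form nucleic acid, spread most. Zbp1 had 202, 443 and 353 normalised reads in NIC-Prmt1, 784, 1231 and 1157 in NIC-Carm1, 411 and 409 in NIC-Prmt6 and 952 and 1316 in NIC. The NIC-Prmt1 and NIC-Prmt6 libraries were below all NIC-Carm1 and NIC libraries, which overlapped each other. The log2 fold change was -1.82 ± 0.31 in NIC-Prmt1 (adjusted p = 0.00309) and -1.45 ± 0.34 in NIC-Prmt6 (adjusted p = 0.00861). Ifih1, the sensor of long double-stranded RNA (MDA5), had 754, 1014 and 795 in NIC-Prmt1, 1149, 1642 and 1738 in NIC-Carm1, 919 and 925 in NIC-Prmt6 and 1296 and 1675 in NIC. It fell in NIC-Prmt1 (-0.80 ± 0.19, adjusted p = 0.0141) and in NIC-Prmt6 (-0.68 ± 0.21, adjusted p = 0.0314), with no overlap with NIC in either, and both calls were lost without NIC replicate 2. Ddx58, the sensor RIG-I, had 1506, 1580 and 1597 in NIC-Prmt1, 1995, 2309 and 2296 in NIC-Carm1, 1851 and 1822 in NIC-Prmt6 and 1679 and 2206 in NIC. It was not called against NIC in any group, and was lower in NIC-Prmt1 than in NIC-Carm1 by 0.49 ± 0.11 (log2, adjusted p = 0.00963). Dhx58, the regulator LGP2, fell by 0.91 in NIC-Prmt1 and by 0.98 in NIC-Prmt6 on the log2 scale. Eif2ak2, the kinase PKR that halts translation on double-stranded RNA, had 722, 898 and 767 in NIC-Prmt1, 1238, 1294 and 1300 in NIC-Carm1, 870 and 936 in NIC-Prmt6 and 900 and 987 in NIC. The NIC-Carm1 libraries were above all others, with a log2 fold change of 0.44 ± 0.11 against NIC (adjusted p = 0.0252), a call lost with the nearly identical libraries averaged and without either NIC library, NIC-Carm1 replicate 2 or 3 or either NIC-Prmt6 library.

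The OAS genes encode enzymes that, once bound to double-stranded RNA, make short oligoadenylates that activate RNase L, together with OAS-like proteins. Oas2 had 202, 366 and 242 normalised reads in NIC-Prmt1, 1762, 1458 and 1364 in NIC-Carm1, 733 and 741 in NIC-Prmt6 and 1020 and 1840 in NIC. The groups formed steps, with NIC-Prmt1 lowest, NIC-Prmt6 between and NIC-Carm1 and NIC overlapping at the top. Oas2 was 5.23-fold lower in NIC-Prmt1 than in NIC (log2 fold change -2.39 ± 0.27, adjusted p = 6.83e-04), 1.86-fold lower in NIC-Prmt6 than in NIC (-0.89 ± 0.30, adjusted p = 0.0403), and lower in NIC-Prmt1 than in NIC-Prmt6 by 1.49 ± 0.27 (log2, adjusted p = 0.0125). The NIC-Prmt6 call against NIC was lost with the nearly identical libraries averaged and without any of 6 single libraries. Oas3 was low in NIC-Prmt1 alone, with 58.4, 77.7 and 50.6 in NIC-Prmt1, 198, 218 and 233 in NIC-Carm1, 169 and 170 in NIC-Prmt6 and 165 and 204 in NIC. It fell in NIC-Prmt1 (-1.57 ± 0.21, adjusted p = 0.00118), was not called in NIC-Prmt6 (-0.11 ± 0.23, adjusted p = 0.727), and was lower in NIC-Prmt1 than in NIC-Prmt6 by 1.46 ± 0.21 (log2, adjusted p = 0.00472). Oasl2 had 623, 894 and 692 in NIC-Prmt1, 1741, 2497 and 2502 in NIC-Carm1, 1012 and 992 in NIC-Prmt6 and 1733 and 2931 in NIC. Its libraries in NIC-Prmt1 and NIC-Prmt6 were below all others, with -1.63 ± 0.24 (adjusted p = 0.00169) and -1.17 ± 0.26 (adjusted p = 0.00709) against NIC. Oas1a, Oas1g and Oasl1 fell by 2.23, 2.15 and 2.14 on the log2 scale in NIC-Prmt1 and by 1.83, 1.73 and 1.19 in NIC-Prmt6. Oas1a and Oas1g are uncertain as single genes, since 57.6% of the 50-base words of the Oas1a transcripts also occur in those of Oas1g. Oas2, Oas3, Oas1g and Oas1a lie side by side on chromosome 5, and so do Oasl2 and Oasl1 at another place on it.

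The IFIT genes, whose proteins bind foreign RNA and block its translation, did not move as one. Ifit3 had 203, 183 and 180 normalised reads in NIC-Prmt1, 318, 553 and 557 in NIC-Carm1, 178 and 171 in NIC-Prmt6 and 335 and 776 in NIC. Ifit1 had 220, 283 and 228 in NIC-Prmt1, 378, 720 and 889 in NIC-Carm1, 322 and 317 in NIC-Prmt6 and 416 and 868 in NIC. In both genes the 2 NIC libraries differed widely and still lay above every NIC-Prmt1 and NIC-Prmt6 library. Ifit3 fell in NIC-Prmt1 (-1.43 ± 0.33, adjusted p = 0.0118) and NIC-Prmt6 (-1.54 ± 0.36, adjusted p = 0.00935), and Ifit1 fell in NIC-Prmt1 (-1.31 ± 0.36, adjusted p = 0.0236) and did not pass in NIC-Prmt6 (-0.91 ± 0.40, adjusted p = 0.0983). Each of these 3 calls was lost without NIC replicate 2. Ifit2 had 363, 283 and 278 in NIC-Prmt1, 151, 303 and 344 in NIC-Carm1, 313 and 327 in NIC-Prmt6 and 267 and 317 in NIC. All groups overlapped NIC, and the log2 fold changes lay between -0.22 and 0.14 with adjusted p of 0.67 or more. The 3 genes are neighbours on chromosome 19, and 51.2% of the 50-base words of Ifit3 are shared with Ifit3b, so Ifit3 is uncertain as a single gene.

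Isg15 encodes a ubiquitin-like protein that is linked to newly made proteins. It had 342, 474 and 545 normalised reads in NIC-Prmt1, 661, 882 and 873 in NIC-Carm1, 541 and 599 in NIC-Prmt6 and 902 and 1580 in NIC. No NIC-Prmt1 or NIC-Prmt6 library reached the lowest NIC-Carm1 library, and all of these were below NIC. By its log2 fold changes, Isg15 was 2.68-fold lower in NIC-Prmt1 than in NIC (-1.42 ± 0.25, adjusted p = 0.00397) and 2.10-fold lower in NIC-Prmt6 than in NIC (-1.07 ± 0.28, adjusted p = 0.0142). Usp18, the protease that removes Isg15 and also restrains the type I receptor, had 184, 308 and 300 in NIC-Prmt1, 715, 1007 and 1004 in NIC-Carm1, 314 and 310 in NIC-Prmt6 and 590 and 1164 in NIC. Usp18 fell in NIC-Prmt1 (-1.69 ± 0.30, adjusted p = 0.00403) and in NIC-Prmt6 (-1.41 ± 0.33, adjusted p = 0.00908), and the NIC-Carm1 and NIC libraries overlapped. Herc6, the main Isg15 ligase of the mouse, fell in NIC-Prmt1 by 0.96 on the log2 scale. Trim25, a ligase that activates RIG-I, stood apart with 3087, 3208 and 3318 in NIC-Prmt1, 2619, 2911 and 2996 in NIC-Carm1, 5486 and 5464 in NIC-Prmt6 and 3431 and 3317 in NIC. Only the NIC-Prmt6 libraries were high, 1.62-fold above NIC (0.70 ± 0.09, adjusted p = 6.34e-04), a call made in all 21 alternatives.

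**Figure D3:**
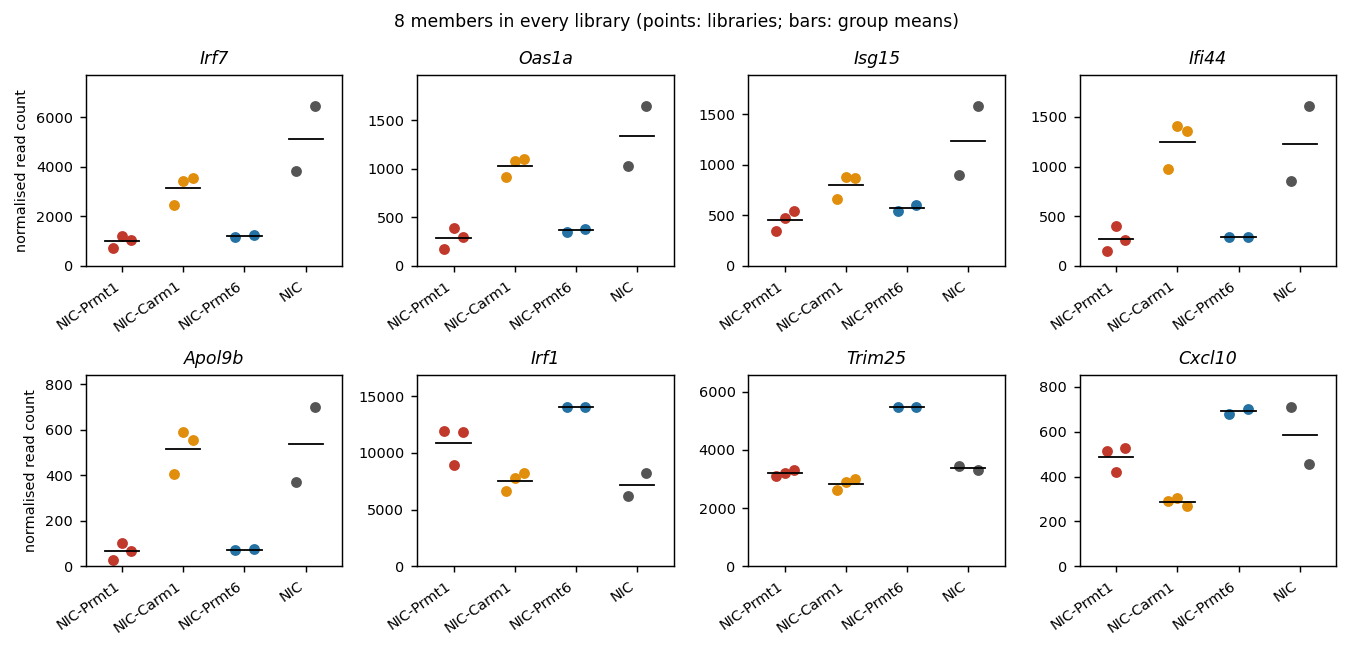
Each point is the normalised read count of a member in 1 library and each bar a group mean, on linear axes that start at 0. Irf7, Oas1a, Isg15, Ifi44 and Apol9b are low in NIC-Prmt1 and NIC-Prmt6, Irf1 is high in both, Trim25 is high in NIC-Prmt6 alone, and Cxcl10 is low in NIC-Carm1.

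Among the other antiviral effectors, Ifi44 spread widely, with 151, 407 and 261 normalised reads in NIC-Prmt1, 978, 1410 and 1362 in NIC-Carm1, 294 and 288 in NIC-Prmt6 and 858 and 1604 in NIC. The NIC-Carm1 libraries lay within the NIC range and all NIC-Prmt1 and NIC-Prmt6 libraries below it. Its log2 fold change was -2.21 ± 0.38 in NIC-Prmt1 (adjusted p = 0.00321) and -2.01 ± 0.41 in NIC-Prmt6 (adjusted p = 0.0049), and the NIC-Prmt6 call was lost with the nearly identical libraries averaged. Bst2, the membrane protein tetherin that holds budding virions, had 1358, 1495 and 1785 in NIC-Prmt1, 1897, 2326 and 2523 in NIC-Carm1, 1479 and 1448 in NIC-Prmt6 and 2604 and 4115 in NIC. The NIC-Prmt1 and NIC-Prmt6 libraries overlapped, the NIC-Carm1 libraries all lay above them, and both NIC libraries lay above all others. Bst2 was 2.13-fold lower in NIC-Prmt1 than in NIC (-1.09 ± 0.19, adjusted p = 0.00388) and 2.24-fold lower in NIC-Prmt6 than in NIC (-1.16 ± 0.21, adjusted p = 0.00286).

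Rsad2 (viperin, which makes a chain-terminating nucleotide) and its neighbour on chromosome 12, the nucleotide kinase Cmpk2, fell by 1.86 and 1.10 in NIC-Prmt1 and by 1.61 and 0.96 in NIC-Prmt6, on the log2 scale. Mx1, a dynamin-like GTPase that blocks viral nucleocapsids, had 23.3, 68.4 and 104 normalised reads in NIC-Prmt1, 172, 281 and 309 in NIC-Carm1, 81.5 and 71.4 in NIC-Prmt6 and 165 and 382 in NIC. Every NIC-Prmt1 and NIC-Prmt6 library was below both NIC libraries. Mx1 fell in NIC-Prmt1 (-2.17 ± 0.56, adjusted p = 0.0181) and missed the threshold in NIC-Prmt6 (-1.71 ± 0.62, adjusted p = 0.0524). Rtp4 and Xaf1 fell by 1.52 and 1.07 (log2) in NIC-Prmt1 and by 1.02 and 0.87 in NIC-Prmt6. Not all effectors were called: Ifi35 had 956, 880 and 1059 in NIC-Prmt1, 915, 1034 and 973 in NIC-Carm1, 990 and 992 in NIC-Prmt6 and 866 and 1045 in NIC, and every group fell within or beside the NIC range. Its log2 fold change was 0.02 ± 0.12 in NIC-Prmt1 and 0.06 ± 0.13 in NIC-Prmt6. Samd9l had 1130, 1114 and 853 in NIC-Prmt1, 810, 1231 and 1240 in NIC-Carm1, 1225 and 1182 in NIC-Prmt6 and 1349 and 1190 in NIC, with no call against NIC. Mx2, Isg20 and Trim30a were not called against NIC either.

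In the group of Parp9, which works with the ubiquitin ligase Dtx3l, the differences were small. Parp9 had 1439, 1399 and 1517 normalised reads in NIC-Prmt1, 1901, 1915 and 1987 in NIC-Carm1, 1521 and 1548 in NIC-Prmt6 and 1642 and 1836 in NIC. It fell in NIC-Prmt1 by 0.26 ± 0.08 (log2, adjusted p = 0.0431), a call lost under 11 of the 21 alternatives, and Dtx3l fell by 0.38. The exons of the 2 genes overlap on opposite strands (9.40% of the Parp9 exon length), and reads there cannot be told apart without strand. Parp14, an ADP-ribosyltransferase, had 2577, 2552 and 2254 in NIC-Prmt1, 2199, 2929 and 3015 in NIC-Carm1, 3510 and 3473 in NIC-Prmt6 and 2553 and 2366 in NIC. The NIC-Prmt6 libraries were above all others (0.51 ± 0.15 against NIC, adjusted p = 0.0226), a call lost with the nearly identical libraries averaged and without either NIC library or either NIC-Prmt6 library.

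The interferon-inducible GTPases, which are strongly induced by interferon gamma and act on vacuoles that hold pathogens, include 1 gene of 4, Gbp3, that was called against NIC. Gbp3 had 588, 839 and 678 normalised reads in NIC-Prmt1, 1005, 1454 and 1522 in NIC-Carm1, 695 and 700 in NIC-Prmt6 and 1454 and 1741 in NIC, and all NIC-Prmt1 and NIC-Prmt6 libraries were below the rest. The log2 fold change of Gbp3 was -1.20 ± 0.20 in NIC-Prmt1 (adjusted p = 0.00271) and -1.19 ± 0.21 in NIC-Prmt6 (adjusted p = 0.00263). Its neighbour on chromosome 3, Gbp2, had 1772, 2585 and 2266 in NIC-Prmt1, 1644, 3166 and 3294 in NIC-Carm1, 2689 and 2683 in NIC-Prmt6 and 3236 and 3592 in NIC. Irgm1 had 1466, 2554 and 1669 in NIC-Prmt1, 1587, 2867 and 2963 in NIC-Carm1, 2000 and 1958 in NIC-Prmt6 and 2721 and 2902 in NIC. Gbp2, Irgm1 and Igtp were not called against NIC in any group, and in NIC-Carm1 replicate 1 all 3 were well below replicates 2 and 3.

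Of the remaining members, Apol9b and Apol9a, intracellular apolipoprotein L genes of the mouse, changed most of all 45. Apol9b had 26.5, 104 and 68.2 normalised reads in NIC-Prmt1, 405, 590 and 553 in NIC-Carm1, 69.7 and 74.0 in NIC-Prmt6 and 372 and 701 in NIC. The NIC-Carm1 libraries lay inside the NIC range, far above every NIC-Prmt1 and NIC-Prmt6 library. By its log2 fold changes, Apol9b was 8.76-fold lower in NIC-Prmt1 than in NIC (-3.13 ± 0.48, adjusted p = 0.00202) and 7.03-fold lower in NIC-Prmt6 than in NIC (-2.81 ± 0.52, adjusted p = 0.00311). Apol9a fell by 3.22 and 2.59 (log2), but 52.3% of the 50-base words of Apol9b occur in Apol9a, so the 2 are uncertain as single genes. Lgals3bp, a secreted glycoprotein, had 2969, 3665 and 3436 in NIC-Prmt1, 6234, 7525 and 7202 in NIC-Carm1, 4151 and 4067 in NIC-Prmt6 and 5945 and 7455 in NIC. Lgals3bp fell in NIC-Prmt1 (-0.99 ± 0.13, adjusted p = 0.00116) and in NIC-Prmt6 (-0.70 ± 0.14, adjusted p = 0.00492). Cxcl10, a chemokine that draws in activated T cells, had 512, 419 and 526 in NIC-Prmt1, 291, 303 and 270 in NIC-Carm1, 680 and 704 in NIC-Prmt6 and 712 and 456 in NIC. Only the NIC-Carm1 libraries lay below all others, 1.98-fold below NIC on average (-0.99 ± 0.18, adjusted p = 0.00761), a call lost without NIC replicate 1 or with the nearly identical libraries averaged.

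Set directly against each other, the methyltransferase groups differed mostly between NIC-Carm1 and the other 2. In NIC-Prmt1 against NIC-Carm1, 33 of the 45 genes were lower and 2 higher (Irf1 and Cxcl10), against 11.8% and 14.9% of all genes (26.8% in all), with a median log2 fold change of -0.91. The 33 included Ddx58, Eif2ak2, Mx2 and Igtp, which were not lower than NIC by the test. With the nearly identical libraries averaged, 20 genes were called, all lower, when 8.76% of all genes were called. In NIC-Carm1 against NIC-Prmt6, 23 genes were higher and 5 lower (Irf1, Stat2, Trim25, Parp14 and Cxcl10), against 18.4% and 20.9% of all genes (39.2% in all), with a median of 0.61. With the nearly identical libraries averaged, NIC-Prmt6 is a single sample. Among the calls there only Trim25 and Cxcl10 remained, both lower in NIC-Carm1, and far fewer of all genes were called as well. In NIC-Prmt1 against NIC-Prmt6, 5 genes were lower (Stat2, Oas2, Oas3, Trim25 and Parp14) and none higher by limma, by edgeR or at an unadjusted p under 0.05, while 4.94% of all genes were lower and 2.54% higher (7.49% in all). The median was -0.30. With the nearly identical libraries averaged, NIC-Prmt6 is again a single sample. Hardly any gene of the whole table was called then, and no member was.

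Members fell both with and without the promoter element. In NIC-Prmt1 against NIC, 12 of the 20 genes with the repeated GAAA element fell, with a median log2 fold change of -1.14, as did 10 of the 16 genes with a window but no match, with a median of -0.78. In NIC-Prmt6 against NIC, 10 of the 20 genes with the element fell (median -0.79), and 8 of the 16 without it (median -0.48). Irf7, which fell most among the transcription factors, had neither motif in its window, and Stat2 and Cxcl10, printed above with the element, did not fall in NIC-Prmt1 by the test. Over all 442 tested genes with the element, 17.0% fell in NIC-Prmt1 (median -0.06), against 14.7% of the 11275 without it (median -0.01). These sets include the 20 and 16 members, so they are not a comparison apart from the members.

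Genes that act before the ISGs were read from lists of the interferon pathway. Of 20 type I and type III interferon genes listed, Ifnb1 alone is in the table, and it passed the filter on low values only through the NIC libraries. Ifnb1 had 0, 0 and 0 normalised reads in NIC-Prmt1, 1.13, 0.82 and 1.94 in NIC-Carm1, 0.91 and 2.58 in NIC-Prmt6 and 15.1 and 18.2 in NIC. Summed over libraries this is 0 recovered reads in NIC-Prmt1 against 30 in NIC, at least 15.7-fold lower with a floor of 3 reads over the group, and with an exact 95% binomial lower bound of 12. Since NIC alone carried the gene past the filter, a difference from NIC was favoured by that filter. The ratio of NIC to NIC-Carm1 was 12.9 (4 and 30 reads in NIC-Carm1 and NIC, exact 95% binomial interval 4.53 to 50.3), and that of NIC to NIC-Prmt6 was 9.30 (4 and 30 reads, 3.28 to 36.3), both scaled by the size factors, with intervals that cover counting error only. Ifng had 10, 38 and 25 reads over the NIC-Prmt1, NIC-Carm1 and NIC-Prmt6 libraries and 18 in NIC, and was not called by limma. Scaled in the same way, the ratio of NIC to NIC-Prmt1 was 2.83 (exact 95% binomial interval 1.24 to 6.87). The ratios of NIC to NIC-Carm1 and to NIC-Prmt6 were 0.813 (0.437 to 1.46) and 0.893 (0.459 to 1.7), again with counting error only.

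Receptors and kinases were called in both directions. Of 6 interferon receptor chains, 1 fell and 1 rose in NIC-Prmt1, 1 rose in NIC-Carm1, and 1 fell and 2 rose in NIC-Prmt6. Over all genes 29.6%, 16.0% and 36.8% were called in these comparisons with NIC, and the counts out of 6 lie near those shares. The type I receptor chain Ifnar1 rose in NIC-Prmt6 (log2 fold change 0.33 ± 0.09, adjusted p = 0.0146), and Ifnlr1, a chain of the type III interferon receptor, fell there (-0.59 ± 0.15, adjusted p = 0.0137). Both calls were lost with the nearly identical libraries averaged and without NIC replicate 2 or either NIC-Prmt6 library. Ifnar2 was not called against NIC. Ifngr2, the signalling chain of the interferon gamma receptor, had 547, 706 and 810 normalised reads in NIC-Prmt1, 1020, 841 and 885 in NIC-Carm1, 956 and 894 in NIC-Prmt6 and 1107 and 1086 in NIC. It fell in NIC-Prmt1 (-0.69 ± 0.16, adjusted p = 0.0102), a call lost without either NIC library. Ifngr1, the ligand-binding chain of the interferon gamma receptor, had 1992, 1994 and 2193 normalised reads in NIC-Prmt1, 1988, 1779 and 1645 in NIC-Carm1, 2460 and 2538 in NIC-Prmt6 and 1381 and 1329 in NIC. All libraries with a methyltransferase were above both NIC libraries, by 0.60, 0.41 and 0.88 (log2) in NIC-Prmt1, NIC-Carm1 and NIC-Prmt6, with adjusted p of 0.00264, 0.0219 and 4.01e-04; the NIC-Carm1 call was lost with the nearly identical libraries averaged and without either NIC library or NIC-Carm1 replicate 2. Jak2, a kinase of the interferon gamma receptor, had 3911, 3584 and 3650 in NIC-Prmt1, 2523, 2252 and 2179 in NIC-Carm1, 5945 and 6162 in NIC-Prmt6 and 4549 and 4166 in NIC, and the groups did not overlap. It fell in NIC-Carm1 (-0.91 ± 0.09, adjusted p = 6.35e-04) and rose in NIC-Prmt6 (0.48 ± 0.10, adjusted p = 0.00582). Jak1, a kinase of both receptors, had log2 fold changes of -0.36 and -0.49 in NIC-Prmt1 and NIC-Carm1, with adjusted p of 0.0213 and 0.0106. Tyk2, a kinase of the type I receptor, had 0.44 and 0.32 in NIC-Carm1 and NIC-Prmt6, with adjusted p of 0.0101 and 0.0248. All of these Jak1 and Tyk2 calls were lost with the nearly identical libraries averaged and without NIC replicate 1.

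Tmem173 (STING), the adaptor that signals cytosolic DNA, and Socs3, an inhibitor of cytokine receptor kinases, were higher in all 3 methyltransferase groups. Tmem173 had 3250, 2935 and 3363 normalised reads in NIC-Prmt1, 2150, 2202 and 2106 in NIC-Carm1, 4566 and 4630 in NIC-Prmt6 and 1231 and 1407 in NIC. The 4 groups did not overlap, and the log2 fold changes of 1.27 ± 0.09, 0.71 ± 0.09 and 1.80 ± 0.10 had adjusted p of 1.41e-04, 0.00185 and 2.04e-05 in NIC-Prmt1, NIC-Carm1 and NIC-Prmt6. Socs3 had 33398, 33324 and 37341 in NIC-Prmt1, 14276, 22285 and 21297 in NIC-Carm1, 27006 and 27199 in NIC-Prmt6 and 11028 and 9726 in NIC. It rose by 1.74, 0.87 and 1.39 (log2), again with every library above NIC, and the NIC-Carm1 call was lost with the nearly identical libraries averaged and without either NIC library. Ptpn2, a phosphatase that acts on receptor kinases, had 1407, 2196 and 2125 in NIC-Prmt1, 1924, 1656 and 1654 in NIC-Carm1, 1884 and 1872 in NIC-Prmt6 and 2815 and 4038 in NIC. It fell by 0.85, 0.95 and 0.84 (log2) in the 3 groups, and each call was lost without NIC replicate 2. Of the 10 feedback inhibitors listed, Socs3 and Ptpn2 among them, 3 fell and 2 rose in NIC-Prmt1, 1 fell and 1 rose in NIC-Carm1, and 1 fell and 2 rose in NIC-Prmt6. Of 13 adaptors and kinases of nucleic acid sensing, 3 fell and 2 rose in NIC-Prmt1, 0 fell and 3 rose in NIC-Carm1 (2 lower at an unadjusted p under 0.05 in limma or edgeR), and 1 fell and 6 rose in NIC-Prmt6. Over all genes 29.6%, 16.0% and 36.8% were called in these 3 comparisons, and the 5 and 3 of 13 called in NIC-Prmt1 and NIC-Carm1 lie close to those shares. Ticam1, the adaptor of Tlr3, fell in NIC-Prmt1 and NIC-Prmt6 by 0.69 (log2) in each, and the DNA sensor gene Ifi204 rose in NIC-Prmt6 by 1.68 ± 0.20 (adjusted p = 4.05e-04).

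**Figure D4:**
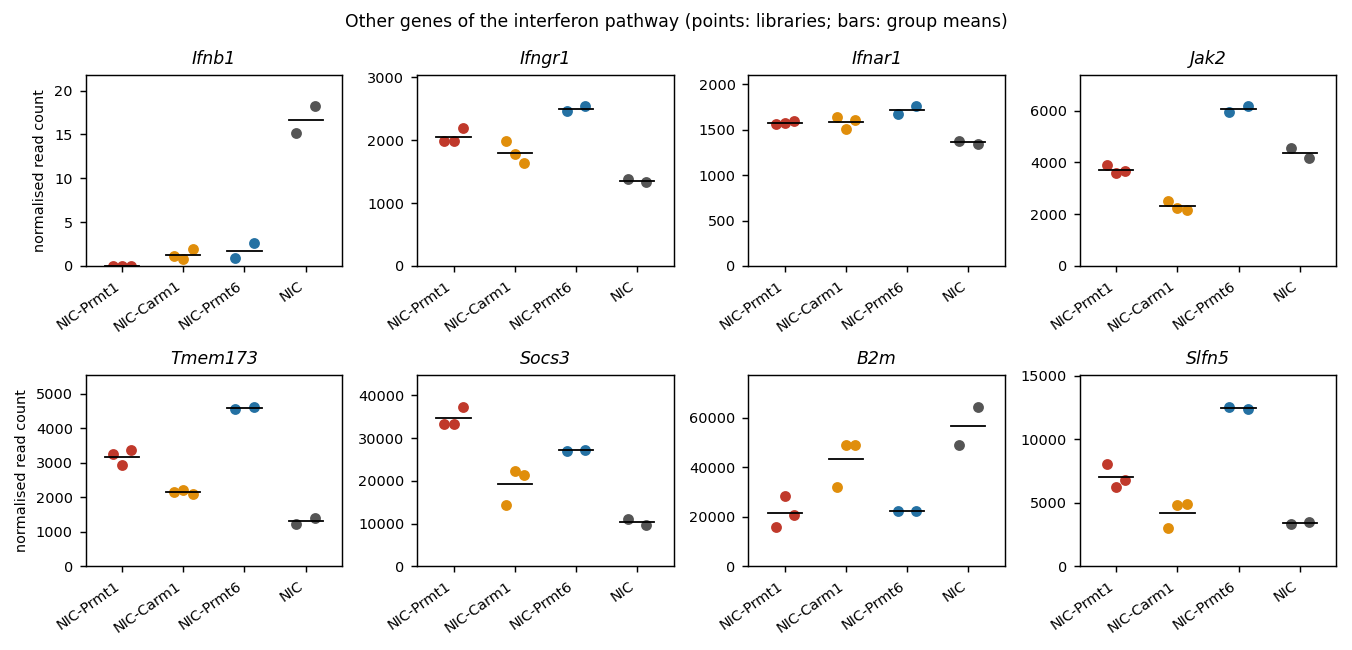
Each point is the normalised read count of a pathway gene in 1 library and each bar a group mean, on linear axes that start at 0. Ifnb1 is near 0 outside NIC, B2m is low in NIC-Prmt1 and NIC-Prmt6, Ifngr1, Ifnar1, Tmem173 and Socs3 lie above NIC in each other group, and Slfn5 is highest in NIC-Prmt6.

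Further interferon-induced genes were called in both directions. Of 14 tested genes of MHC class I presentation, the route that displays cell proteins to T cells, 8 fell and 1 rose in NIC-Prmt1. In NIC-Carm1 0 were called by limma, by edgeR or at an unadjusted p under 0.05, and 8 fell in NIC-Prmt6. Of all genes, 14.4% fell and 15.2% rose in NIC-Prmt1, and 9.36% fell and 6.65% rose in NIC-Carm1. In NIC-Prmt6 17.8% of all genes fell and 19.0% rose. B2m, the invariant light chain, had 15745, 28436 and 20617 normalised reads in NIC-Prmt1, 32216, 48932 and 48916 in NIC-Carm1, 22198 and 22487 in NIC-Prmt6 and 48942 and 64496 in NIC. The log2 fold change of B2m was -1.42 ± 0.26 in NIC-Prmt1 (adjusted p = 0.0044) and -1.33 ± 0.29 in NIC-Prmt6 (adjusted p = 0.00592). H2-K1, a class I heavy chain, fell by 1.35 and 1.53 (log2). Of 40 other interferon-induced genes tested, 7 fell and 5 rose in NIC-Prmt1, 3 fell and 0 rose in NIC-Carm1 by limma (3 higher at an unadjusted p under 0.05, 0 called higher by edgeR), and 4 fell and 7 rose in NIC-Prmt6, near or below the shares of all genes called. Those that rose included Slfn5, with 8053, 6276 and 6784 in NIC-Prmt1, 2979, 4806 and 4868 in NIC-Carm1, 12562 and 12354 in NIC-Prmt6 and 3325 and 3517 in NIC. Its log2 fold change was 1.03 ± 0.20 in NIC-Prmt1 (adjusted p = 0.005) and 1.87 ± 0.22 in NIC-Prmt6 (adjusted p = 3.16e-04). Helz2 rose by 0.65 and 1.10 (log2) in these groups.

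Cell type markers moved with the groups as well, and in these bulk samples fewer cells of a type and less RNA per cell cannot be told apart. The labelled cell type was looked at through 9 luminal epithelial genes such as Krt8, Krt18 and Epcam. All 9 genes were detected in every library, which does not measure purity. Their summed normalised count was 159932 to 233565 in NIC-Prmt1, 137221 to 175032 in NIC-Carm1, 151883 to 153525 in NIC-Prmt6 and 256720 to 311265 in NIC. The sum was therefore lower than NIC in every other group. Of the 9 genes, 3 fell and 2 rose in NIC-Prmt1, 5 fell in NIC-Carm1 and 5 fell in NIC-Prmt6. Of all genes, 29.6%, 16.0% and 36.8% were called in these comparisons. The part of the luminal genes in the ISG results was not tested. The sum of 7 fibroblast genes was 115649 to 160973 in NIC-Prmt1, 78362 to 96587 in NIC-Carm1, 288991 to 289577 in NIC-Prmt6 and 79885 to 99514 in NIC, and that of 6 endothelial genes was 52058 to 75322, 27522 to 33891, 67228 to 67793 and 27722 to 33976 in the same order of groups. All 6 endothelial genes rose in NIC-Prmt1 and in NIC-Prmt6, 5 and 7 of the 7 fibroblast genes rose in these groups, and 0 of either list were called by limma or edgeR in NIC-Carm1, with 1 lower and 1 higher in each list at an unadjusted p under 0.05. These lists rose in the groups where the ISGs fell, and their part in that result was not tested. The sum of 7 basal epithelial genes was 71845 to 131186 in NIC-Prmt1 and 34280 to 45663 in the other groups.

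B cell markers varied several-fold between the libraries of NIC-Prmt1 and between those of NIC. The sum of 7 B cell genes was 103, 1300 and 104 in NIC-Prmt1, 513, 525 and 527 in NIC-Carm1, 126 and 135 in NIC-Prmt6 and 1029 and 117 in NIC, and 0 of the 7 were called against NIC by limma or edgeR, nor did any have an unadjusted p under 0.05 in limma. Blk was at 0 in NIC replicate 2 and Ms4a1 in NIC-Prmt1 replicate 1. NIC-Prmt1 replicate 2 had the highest B cell sum of its group and also its highest median ISG level. NIC replicate 2 had the higher ISG values and the lower B cell sum of the 2 NIC libraries, as well as the lower T cell sum (229, against 996 in replicate 1). Between groups, the B cell sum was higher in NIC-Carm1 than in NIC-Prmt6, as were 23 of the 45 ISGs by the test, and the part of these markers in the ISG results was not tested. The sum of 11 macrophage genes was 11877 to 21087 in NIC-Prmt1, 24704 to 25743 in NIC-Carm1, 27644 to 28350 in NIC-Prmt6 and 15217 to 16692 in NIC. Of the 11 genes, 2, 3 and 8 were called higher in NIC-Prmt1, NIC-Carm1 and NIC-Prmt6 than in NIC. Over all genes 15.2%, 6.65% and 19.0% were called higher, and the 2 of 11 in NIC-Prmt1 lie close to that share. The sum of 7 plasmacytoid dendritic cell genes, a cell type known for high interferon production, was 3228 to 3815 in NIC-Prmt1, 2847 to 2995 in NIC-Carm1, 4367 to 4571 in NIC-Prmt6 and 2925 to 3152 in NIC. Most of that sum was Tcf4, which other cell types also express, and which was the 1 gene of the list called against NIC, higher in NIC-Prmt6. Siglech, a more specific marker, had 38.2, 74.6 and 33.1 in NIC-Prmt1, 164, 265 and 283 in NIC-Carm1, 68.8 and 67.1 in NIC-Prmt6 and 153 and 29.9 in NIC. The median log2 fold change of the 6 tested genes was -0.50, 0.55 and -0.51 in NIC-Prmt1, NIC-Carm1 and NIC-Prmt6. Sums over NK cell genes lay between 138.5 and 201 in all libraries, and those over neutrophil genes between 133.7 and 308.8.

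**Figure D5:**
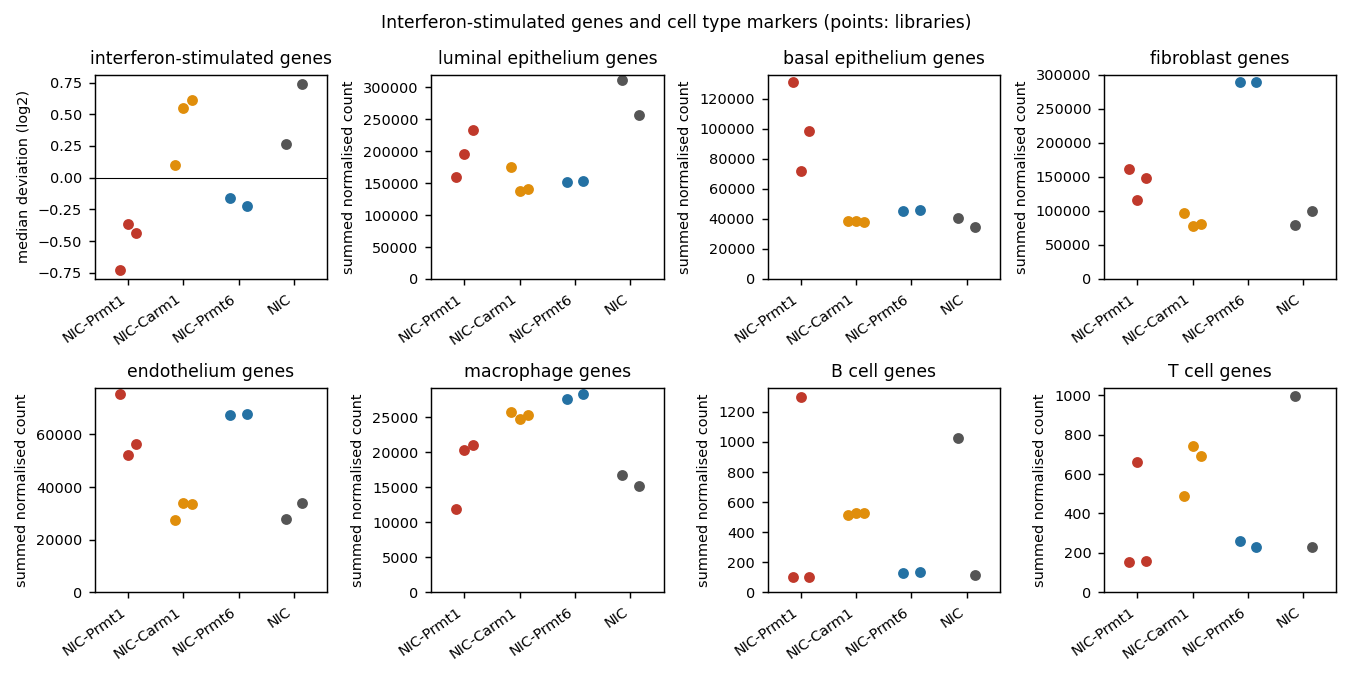
Points are libraries; the first panel gives the median deviation of the 45 members (log2), the other panels the summed normalised read count of a marker list, on axes that start at 0. Luminal sums are highest in NIC, fibroblast and endothelial sums are highest in NIC-Prmt1 and NIC-Prmt6, and the B cell and T cell sums differ widely inside NIC and NIC-Prmt1.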

How the data were processed

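RNA was measured in 10 libraries. Per the labels' protocols, RNA was extracted with Trizol, treated with DNase I and made into poly-A libraries (TruSeq). Per the submitters' processing notes, TopHat2 2.0.10, HTSeq 0.6.0, DESeq 1.18.0 and build mm10 were used; no annotation or strand setting is given in the sources used here. The deposited values are a normalised signal per gene, the authors' read counts divided by a size factor: 100% were whole multiples of 1 step per library within 0.01, which recovered whole reads (floor: 3 reads). The members and gene lists were chosen with earlier results of these data known. Of the pathway genes outside the 45 members, 1 is not reported here. The test was limma-trend (limma 3.58.1, R 4.3.3) on log2(value + 1), with all 10 libraries in a single fit of 4 group means (6 residual degrees of freedom) and Benjamini-Hochberg adjustment over 15694 genes (threshold 0.05), tested on simulated data. Values per library are given for the 2 most abundant, the most and the least variable members of each role and for members called against the main direction; others with values (Eif2ak2, Oas3 and Mx1) were chosen after their values were seen. edgeR 4.0.16 and DESeq2 1.42.0 on the recovered reads were alternatives. Gene positions are from GENCODE, build GRCm38.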

Additional observations from a re-analysis of the deposited data

How the results depend on the processing

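The 21 other settings were pseudocounts of 0.5 and 5, a minimum of 0 or of 50 in place of 10, TMM and upper-quartile scaling, edgeR, DESeq2, a replicate block, a fit of the 2 compared groups alone, averaging the nearly identical libraries, and leaving out each library. No member reversed its direction in a called result, and 35 of 74 called results of named genes kept their call in every alternative that gave a value. edgeR called 30, 2, 27, 35, 5 and 28 members in NIC-Prmt1, NIC-Carm1 and NIC-Prmt6 against NIC, NIC-Prmt1 against NIC-Carm1, NIC-Prmt1 against NIC-Prmt6 and NIC-Carm1 against NIC-Prmt6, where limma called 30, 2, 26, 35, 5 and 28. Of all genes, edgeR called 28.9%, 15.6%, 36.8%, 26.7%, 7.71% and 39.6% in the same order. Averaging the nearly identical libraries gave 27, 0 and 20 members in NIC-Prmt1 and NIC-Carm1 against NIC and in NIC-Prmt1 against NIC-Carm1. The shares of all genes were 16.7%, 2.19% and 8.76%. Comparisons with NIC-Prmt6 then rest on a single NIC-Prmt6 sample, and fewer members were called there too. Averaging removes samples and also the pairs with the least spread, and which of these lost the calls was not tested. The ranges that follow take all comparisons in the order given for edgeR. The share of all genes called also differed widely between these settings, so the ranges alone do not set the members apart from other genes. Leaving out 1 library gave 22 to 34, 1 to 4, 10 to 30, 28 to 38, 1 to 6 and 15 to 30. DESeq2 called 7 members in NIC-Carm1 against NIC, and 18 were called in NIC-Prmt1 against NIC without NIC-Prmt1 replicates 1 and 3; the cause was not tested. In NIC-Prmt1 against NIC-Prmt6, 2 members were called without NIC-Prmt1 replicate 3 (2.93% of all genes). Without 1 of the NIC-Prmt6 libraries, comparisons with NIC-Prmt6 rest on a single sample of that group. Fewer calls were made there, both among members and over all genes. The median log2 fold change moved by more than the spread between replicates without NIC replicate 1, to -1.33 in NIC-Prmt1, -0.34 in NIC-Carm1 and -0.95 in NIC-Prmt6 against NIC.

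Equal replicate numbers did not pair the libraries: the correlations of their deviations lay between -0.132 and 0.1. With the replicate block, 31, 5, 27, 35, 4 and 27 members were called in the 6 comparisons in the order above. Of all genes, 23.8%, 10.6%, 34.5%, 23.5%, 3.64% and 32.4% were called in the same order.

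With 2 or 3 libraries a group, of which 2 pairs are nearly identical, the spread of NIC-Prmt6 rests on a single pair of like libraries. All 45 members lie above the counting floor in every library, while depth limits what can be said of Ifnb1, Ifng and markers with few reads, among them B cell, T cell and plasmacytoid dendritic cell genes.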
